A study of Mus musculus with 15 samples.

Results

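Genes of cholesterol synthesis and of its control by the SREBP pathway were followed in mouse embryonic stem cells depleted of Tet1 or of Sin3a. They were taken by symbol from a list of 27 genes through the annotation of the array platform, which matched 24 of them, each with 1 probe set, out of 18784 genes named on the array. The 24 comprised 4 genes of the mevalonate steps, 11 of the squalene and sterol steps, 7 of SREBP control and 2 of sterol transport. Acat2, Hmgcs1 and Idi1 were not analysed here. The Tet1 set held cells given Tet1 shRNA 4, Tet1 shRNA 5 or a scrambled shRNA, and the Sin3A set held cells given a Sin3A shRNA or its own scrambled shRNA. Each of the 5 groups had 3 arrays. All groups were E14TG2a.4 cells, an embryonic stem line kept without feeder cells on gelatin in 15% serum with leukaemia inhibitory factor, at passage 17. All carried a lentiviral PLKO.1 hairpin and had been selected with puromycin (2 µg per ml, begun 36 hours after transduction and kept for 72 hours), so the scrambled cells shared the virus and the drug. Sin3a was targeted with 1 hairpin only. Separate cultures are not recorded for the replicates, so the p-values rest on array-to-array spread that may be technical.

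Cells make cholesterol from acetyl-CoA, first through the mevalonate steps to farnesyl diphosphate, then through squalene to lanosterol, and finally through a series of oxidations and reductions to cholesterol. The pathway is set mainly at the level of transcription by the SREBP proteins, which are made as membrane precursors. Scap carries the precursor to the Golgi when sterol is low, Insig proteins hold Scap back when sterol is high, and the proteases encoded by Mbtps1 and Mbtps2 cut the precursor to release the active factor.

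Both targeted genes were low in the cells that carried their hairpins. Tet1, which encodes a dioxygenase of methylated cytosine, averaged 10.42 ± 0.03 with Tet1 shRNA 4 and 10.09 ± 0.14 with Tet1 shRNA 5, against 12.20 ± 0.02 with scrambled (log2 level, SD, n = 3 each). Sin3a, the scaffold of a histone deacetylase complex, averaged 9.38 ± 0.04 with Sin3A shRNA, against 10.93 ± 0.06 with scrambled. Each also moved when the other was targeted: Sin3a changed by -0.27 with Tet1 shRNA 4 (adjusted p = 0.0147) and -0.24 with Tet1 shRNA 5 (adjusted p = 0.0219), and Tet1 by 0.31 with Sin3A shRNA (adjusted p = 0.00679). The Sin3a calls were lost without scrambled replicate 1, Tet1 shRNA 4 replicate 1 or Tet1 shRNA 4 replicate 3 for Tet1 shRNA 4 (adjusted p 0.0504 to 0.0563), and without scrambled replicate 1 or 3 or Tet1 shRNA 5 replicate 1 or 3 for Tet1 shRNA 5 (0.0582 to 0.0868). The embryonic stem cell label was borne out by its markers, since 10 of 10 lay above the median probe set in every group. Some of these 10 changed: 2 rose and 0 fell with Tet1 shRNA 4, 2 rose and 1 fell with Tet1 shRNA 5, and 2 rose and 1 fell with Sin3A shRNA. Levels of 7 trophectoderm markers, averaged per array on the log2 scale, ran from 6.82 to 6.87 with Tet1 shRNA 4 and from 6.93 to 6.97 with Tet1 shRNA 5, against 7.02 to 7.20 with scrambled, and from 8.14 to 8.19 with Sin3A shRNA, against 8.57 to 8.60 with scrambled. Its members went both ways in the Tet1 set, with 1 higher and 2 lower for Tet1 shRNA 4 and 2 higher and 2 lower for Tet1 shRNA 5, and 4, 4 and 2 of the 7 lay above the median probe set with Tet1 shRNA 4, Tet1 shRNA 5 and scrambled. With Sin3A shRNA 0 were higher and 4 lower. Levels of 8 primitive endoderm markers ran from 7.14 to 7.22 with Tet1 shRNA 4 and from 7.12 to 7.19 with Tet1 shRNA 5, against 6.88 to 7.07 with scrambled. In the Sin3A set they ran from 8.14 to 8.16 with Sin3A shRNA, against 8.05 to 8.09 with scrambled. Single markers went both ways: 2 rose and 0 fell with Tet1 shRNA 4, 2 rose and 1 fell with Tet1 shRNA 5, and 2 rose and 1 fell with Sin3A shRNA. With Sin3A shRNA 3 of the 8 lay above the median probe set, against 4 with its scrambled. Among 5 genes typical of hepatocytes and visceral endoderm, and among 9 fibroblast markers, 0 and 1 passed the test for both Tet1 hairpins. With Sin3A shRNA 0 of these 5 genes passed, while 2 of the 9 fibroblast markers fell and 0 rose, and the fibroblast list averaged 6.78 to 6.93 per array with Sin3A shRNA, against 6.95 to 7.01 with scrambled. Fewer cells of a type and less RNA per cell cannot be told apart in such bulk samples, and the part of these markers in the results was not tested.

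In the Tet1 set, replicate 2 of Tet1 shRNA 4 and replicate 2 of scrambled stood apart in a like way (r = 0.517 between their deviations from the group means, across probe sets, which are not independent). Replicate 2 was the lowest array of both groups for 10 of the 24 genes, Sqle, Lss, Cyp51, Msmo1, Nsdhl, Hsd17b7, Ebp, Sc5d, Mbtps2 and Stard4. It was the highest array of both groups for 5 others, Fdps, Srebf1, Srebf2, Scap and Mbtps1, and for 0 genes was it lowest in one group and highest in the other. The share of all probe sets with this pattern was not counted, so these counts do not set the sterol genes apart. The main changes are therefore also given without these 2 arrays. Among the named genes, leaving out both changed the calls of Insig1, Insig2 and Scap with Tet1 shRNA 4, of Insig2 and Srebf1 with Tet1 shRNA 5, and of Dhdds for the difference between the Tet1 and Sin3A effects (-0.30, adjusted p = 0.0204).

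The windows of 250 bases before the transcription start of Sc5d, Msmo1 and Mbtps2 are shown because these genes passed the test for both Tet1 hairpins, 2 of them upward and Mbtps2 downward. Sqle also passed upward for both hairpins, but no window was found for it. The printed windows have these features. They run 5′ to 3′ along the gene, come from RefSeq (GRCm38.p6) and lie, for Sc5d, Msmo1 and Mbtps2, at chr9:42264301-42264550, chr8:64733579-64733828 and chrX:157598716-157598965, all on the minus strand. Capitals mark CCAAT, the box bound by NF-Y, and GGGCGG, the GC box bound by Sp1, or their reverse complements.
Sc5d: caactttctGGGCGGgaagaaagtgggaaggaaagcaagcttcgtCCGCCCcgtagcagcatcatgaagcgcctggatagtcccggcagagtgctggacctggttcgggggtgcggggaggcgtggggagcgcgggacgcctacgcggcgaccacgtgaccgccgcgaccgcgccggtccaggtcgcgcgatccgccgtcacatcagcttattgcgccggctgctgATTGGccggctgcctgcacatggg
Msmo1: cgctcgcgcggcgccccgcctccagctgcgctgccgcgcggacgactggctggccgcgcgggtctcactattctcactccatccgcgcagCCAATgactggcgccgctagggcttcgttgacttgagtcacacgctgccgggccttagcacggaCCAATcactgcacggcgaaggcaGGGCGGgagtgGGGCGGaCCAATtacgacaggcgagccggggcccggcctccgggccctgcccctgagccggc
Mbtps2: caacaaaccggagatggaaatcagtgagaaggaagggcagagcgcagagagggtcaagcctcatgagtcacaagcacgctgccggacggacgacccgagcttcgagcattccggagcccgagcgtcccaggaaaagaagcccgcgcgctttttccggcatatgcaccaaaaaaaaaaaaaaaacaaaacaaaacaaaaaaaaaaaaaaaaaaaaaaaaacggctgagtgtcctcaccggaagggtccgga
The Sc5d window held 1 CCAAT box on the reverse strand, 24 to 20 bases before the start, and 2 GC boxes. The Msmo1 window held 3 CCAAT boxes, which began 160, 96 and 55 bases before the start, and 2 GC boxes that began 73 and 62 bases before it. The Mbtps2 window held neither. Windows were found for 19 of the 24 genes. CCAAT was present in 16 of these 19 genes (84.2%), all but Scap, Mbtps1 and Mbtps2, against 37.5% of 27025 genes with a window. GGGCGG was present in 17 of 19 (89.5%), all but Pmvk and Mbtps2, against 35.4% of all genes. The letters TCACNCCAC, a form of the sterol response element to which SREBP binds, were in 0 of the 19 and in 1.22% of all genes. Both strands were searched, the 3 motifs share no overlapping match in the printed windows, and a match is a description of letters, not of a bound site.

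Depletion of Tet1 was accompanied by higher transcripts of 3 enzymes of the later steps, Sqle, Msmo1 and Sc5d, by 1.27-fold to 1.48-fold, and by a lower transcript of the protease gene Mbtps2. Of the 24 genes, 3 rose and 1 fell with Tet1 shRNA 4 (16.7%), where 11.6% of all 21212 probe sets passed the test (6.88% higher and 4.71% lower; limma, adjusted p under 0.05). With Tet1 shRNA 5, 4 rose and 1 fell (20.8%), where 13.8% of all probe sets passed, 8.37% higher and 5.46% lower. The same 3 higher genes and 1 lower gene passed for both hairpins (16.7%, against 8.81% of all probe sets, 5.40% higher and 3.40% lower). The 24 genes had a median log2 change of 0.14 with Tet1 shRNA 4 and 0.10 with Tet1 shRNA 5, against 0.00 for all probe sets in each case, and 20 and 21 of the 24 estimates were above 0. Both comparisons used the same 3 scrambled arrays, and the genes were chosen with earlier results of these data known.

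**Figure D1:**
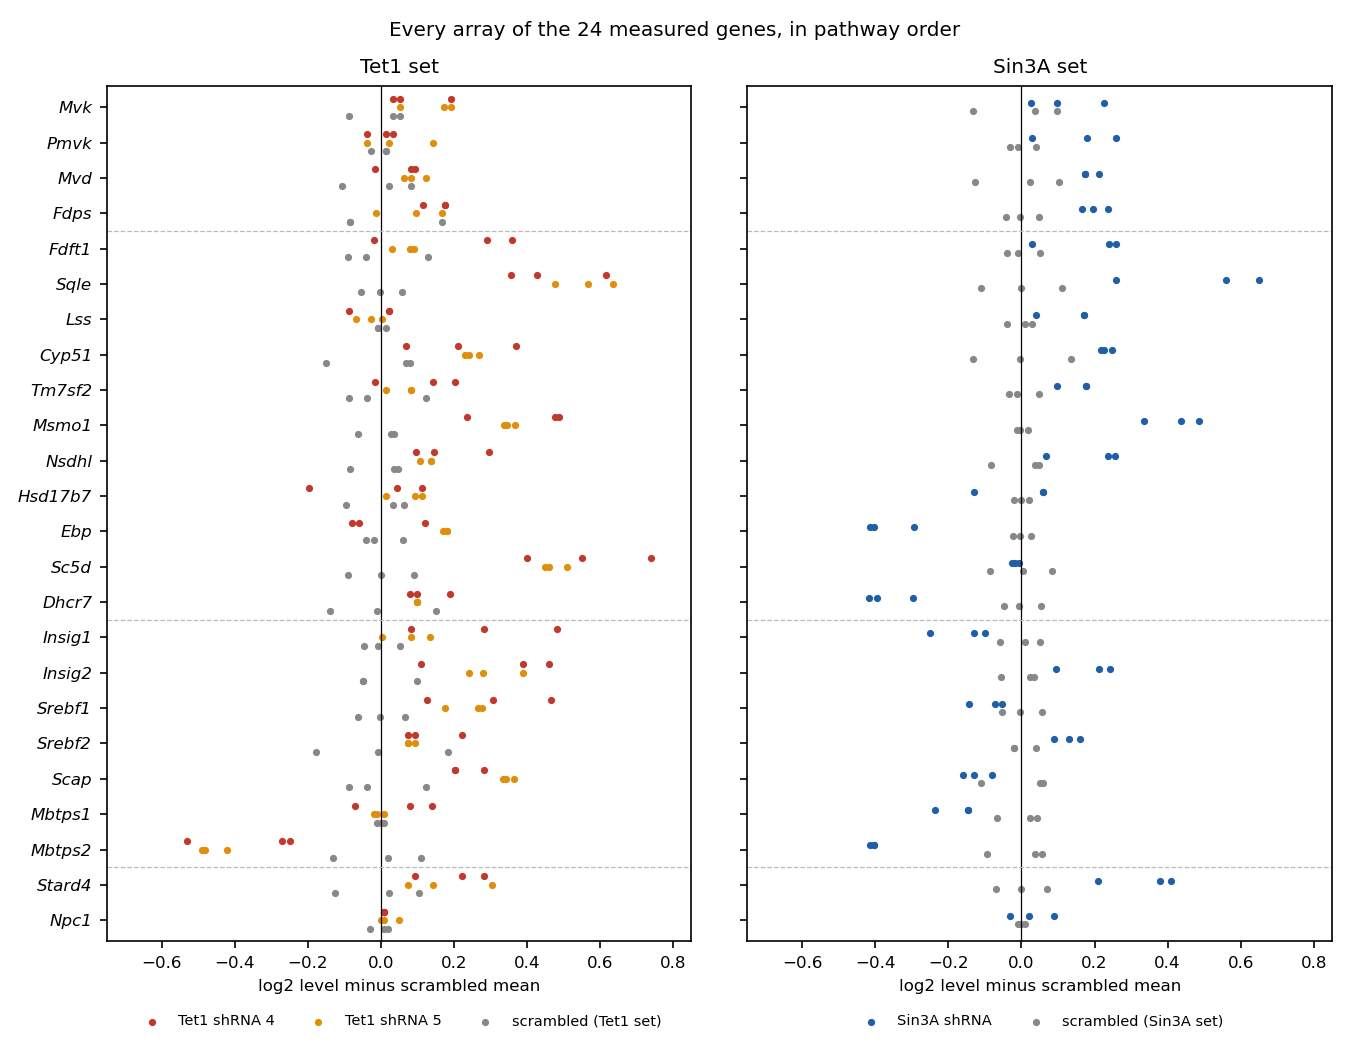
Each row is 1 of the 24 genes in pathway order and each point 1 array; the x axis gives the log2 level minus the mean of the scrambled arrays of the same set, with the Tet1 set on the left (Tet1 shRNA 4, Tet1 shRNA 5, scrambled) and the Sin3A set on the right (Sin3A shRNA, scrambled). All points of Sqle, Msmo1 and Sc5d with either Tet1 shRNA lie right of the scrambled points and those of Mbtps2 lie left of them, while with Sin3A shRNA the points of Ebp, Dhcr7 and Mbtps2 lie left and those of Sc5d lie among the scrambled ones.

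The measured mevalonate genes did not pass the test with either Tet1 hairpin. These are Mvk and Pmvk, the kinases that phosphorylate mevalonate, Mvd, which decarboxylates the product, and Fdps, which joins the isoprene units into farnesyl diphosphate. Their log2 changes lay between 0.00 and 0.16 with Tet1 shRNA 4 and between 0.04 and 0.14 with Tet1 shRNA 5. For Fdps the arrays read 10.01, 10.07 and 10.07 with Tet1 shRNA 4 and 9.88, 9.99 and 10.06 with Tet1 shRNA 5, against 9.81, 10.06 and 9.81 with scrambled (log2 level). The 3 groups overlapped through the second scrambled array, and without that array the Tet1 shRNA 4 change of Fdps was 0.25 (adjusted p = 0.0478), against 0.16 (adjusted p = 0.283) with all arrays. That was 1 of 16 alternative fits, and Fdps did not pass in the other 15. Without both arrays that stood apart it changed by 0.23 (adjusted p = 0.0902) with Tet1 shRNA 4 and 0.17 (adjusted p = 0.142) with Tet1 shRNA 5.

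Among the 11 genes of the squalene and sterol steps, 3 rose and 0 fell with each Tet1 hairpin (27.3%). Of all probe sets, 11.6% passed with Tet1 shRNA 4 (6.88% higher) and 13.8% with Tet1 shRNA 5 (8.37% higher). Sqle encodes squalene epoxidase, which puts the first oxygen on squalene and is a rate-limiting enzyme of the pathway. Its arrays read 9.71, 9.64 and 9.90 with Tet1 shRNA 4 and 9.92, 9.76 and 9.85 with Tet1 shRNA 5, against 9.34, 9.23 and 9.28 with scrambled. All 6 arrays with a Tet1 hairpin lay above the 3 scrambled ones. The change was 0.47 ± 0.08 (SE, 1.38-fold, adjusted p = 0.00392) with Tet1 shRNA 4 and 0.56 ± 0.08 (1.48-fold, adjusted p = 0.00131) with Tet1 shRNA 5.

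Msmo1 encodes the oxidase that starts the removal of the C4 methyl groups from the sterol ring. Its levels were 9.26, 9.01 and 9.25 with Tet1 shRNA 4 and 9.12, 9.11 and 9.14 with Tet1 shRNA 5, against 8.81, 8.71 and 8.80 with scrambled, again with no overlap. It rose by 0.40 (1.32-fold, adjusted p = 0.00712) with Tet1 shRNA 4 and by 0.34 (1.27-fold, adjusted p = 0.0135) with Tet1 shRNA 5. Sc5d encodes the sterol desaturase that acts shortly before the last step, and its levels were 9.13, 8.98 and 9.32 with Tet1 shRNA 4 and 9.04, 9.03 and 9.09 with Tet1 shRNA 5, against 8.58, 8.49 and 8.67 with scrambled. The groups did not overlap, and the change was 0.57 ± 0.09 (1.48-fold, adjusted p = 0.00259) with Tet1 shRNA 4 and 0.47 ± 0.09 (1.39-fold, adjusted p = 0.00611) with Tet1 shRNA 5. Without the 2 arrays that stood apart, Sqle changed by 0.49 and 0.53, Msmo1 by 0.45 and 0.31, and Sc5d by 0.60 and 0.43 with Tet1 shRNA 4 and Tet1 shRNA 5, and all 6 values passed the test.

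The other 8 genes of these steps did not pass. Cyp51, the lanosterol demethylase, changed by 0.22 (adjusted p = 0.174) with Tet1 shRNA 4 and 0.25 (adjusted p = 0.106) with Tet1 shRNA 5, from arrays that read 8.11, 7.97 and 8.27 with Tet1 shRNA 4 and 8.13, 8.14 and 8.17 with Tet1 shRNA 5, against 7.98, 7.75 and 7.97 with scrambled. All 3 arrays of Tet1 shRNA 5 lay above scrambled, while those of Tet1 shRNA 4 overlapped it at the lowest array. Nsdhl, which takes part in removing the C4 methyl groups, ranged from 9.50 to 9.70 with Tet1 shRNA 4 (0.18, adjusted p = 0.136) and from 9.51 to 9.54 with Tet1 shRNA 5 (0.12, adjusted p = 0.297), against 9.32 to 9.45 with scrambled. Fdft1, which makes squalene from farnesyl diphosphate, ranged from 10.95 to 11.33 with Tet1 shRNA 4 and from 11.00 to 11.06 with Tet1 shRNA 5, against 10.88 to 11.10 with scrambled, and the groups overlapped. Without the 2 arrays that stood apart, Cyp51, Nsdhl and Fdft1 changed by 0.22, 0.18 and 0.30 with Tet1 shRNA 4 and by 0.17, 0.08 and 0.04 with Tet1 shRNA 5, and 0 of these 6 values passed. Lss, which closes squalene epoxide into lanosterol, lay between 8.98 and 9.09 in all 9 arrays. Tm7sf2, a sterol reductase, Hsd17b7, which reduces the keto group left by demethylation, Ebp, the sterol isomerase, and Dhcr7, the reductase of the last step, had changes between -0.01 and 0.12 with Tet1 shRNA 4 and between 0.06 and 0.18 with Tet1 shRNA 5.

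Of the 7 genes of SREBP control, 1 fell with Tet1 shRNA 4 and 1 rose and 1 fell with Tet1 shRNA 5. These were 14.3% and 28.6% of the 7, where 11.6% and 13.8% of all probe sets passed. Mbtps2, the membrane protease that makes the second cut, had 9.27, 9.01 and 9.29 with Tet1 shRNA 4 and 9.05, 9.06 and 9.12 with Tet1 shRNA 5, against 9.65, 9.41 and 9.56 with scrambled. All 6 arrays with a Tet1 hairpin were below all scrambled arrays, and the change was -0.35 ± 0.09 (1.28-fold lower, adjusted p = 0.0319) with Tet1 shRNA 4 and -0.46 ± 0.09 (1.38-fold lower, adjusted p = 0.00725) with Tet1 shRNA 5. The call with Tet1 shRNA 4 was lost in 8 of 16 alternative fits (adjusted p 0.0504 to 0.105): without scrambled replicate 1 (0.105) or 3 (0.0969), without Tet1 shRNA 4 replicate 1 (0.0539) or 2 (0.0785), without any 1 array of Tet1 shRNA 5 (0.0504 to 0.0539), and with only the 2 groups in the fit (0.0918). Without both arrays that stood apart it was -0.33 (adjusted p = 0.0145), and -0.53 (adjusted p = 0.00136) with Tet1 shRNA 5.

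Scap, the escort of the SREBP precursors, had 9.76, 9.84 and 9.76 with Tet1 shRNA 4 and 9.92, 9.89 and 9.90 with Tet1 shRNA 5, against 9.47, 9.68 and 9.52 with scrambled. Both hairpin groups lay above scrambled, and the change passed with Tet1 shRNA 5 (0.35 ± 0.07, 1.27-fold, adjusted p = 0.00719) and missed the threshold with Tet1 shRNA 4 (0.23 ± 0.07, adjusted p = 0.0545). Without both arrays that stood apart the Tet1 shRNA 4 value of Scap was 0.27 (adjusted p = 0.0186), and without scrambled replicate 2 alone its adjusted p was 0.00975.

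Insig2, one of the proteins that hold Scap in the endoplasmic reticulum, and Srebf1, the gene of SREBP-1, had every hairpin array above every scrambled array, yet did not pass. Insig2 read 8.75, 8.47 and 8.82 with Tet1 shRNA 4 and 8.60, 8.64 and 8.75 with Tet1 shRNA 5, against 8.46, 8.31 and 8.31 with scrambled, and changed by 0.32 (adjusted p = 0.0567) with Tet1 shRNA 4 and 0.31 (adjusted p = 0.0619) with Tet1 shRNA 5. Srebf1 read 8.71, 8.87 and 8.53 with Tet1 shRNA 4 and 8.67, 8.58 and 8.68 with Tet1 shRNA 5, against 8.34, 8.47 and 8.40 with scrambled, and changed by 0.29 (adjusted p = 0.0566) with Tet1 shRNA 4 and 0.24 (adjusted p = 0.106) with Tet1 shRNA 5. Without both arrays that stood apart, Insig2 passed with both hairpins (0.40, adjusted p = 0.0186, with Tet1 shRNA 4 and 0.28, adjusted p = 0.0379, with Tet1 shRNA 5), Srebf1 passed with Tet1 shRNA 5 (0.27, adjusted p = 0.0384), and Insig1 passed with Tet1 shRNA 4 (0.38, adjusted p = 0.0317). The count without these arrays was 7 of 24 for Tet1 shRNA 4, where 11.6% of all probe sets passed in that fit, 7 for Tet1 shRNA 5, where 16.2% passed, and 6 for both hairpins, where 9.24% passed. With all arrays, Insig1, which is itself a target of SREBP, changed by 0.29 (adjusted p = 0.0873) with Tet1 shRNA 4 and 0.08 (adjusted p = 0.695) with Tet1 shRNA 5. Srebf2, the gene of SREBP-2 and the main regulator of sterol synthesis, changed by 0.13 with Tet1 shRNA 4 and 0.08 with Tet1 shRNA 5, and Mbtps1, the protease of the first cut, by 0.05 with Tet1 shRNA 4 and -0.01 with Tet1 shRNA 5, with overlapping groups in each case.

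The 2 transport genes did not pass with either hairpin. Stard4, a soluble carrier that moves cholesterol between membranes, ranged from 7.68 to 7.87 with Tet1 shRNA 4 and from 7.66 to 7.89 with Tet1 shRNA 5, against 7.46 to 7.69 with scrambled. Npc1, which exports cholesterol from lysosomes, lay between 10.22 and 10.30 in all 9 arrays of the Tet1 set. Over all 24 genes, the arrays did not overlap with scrambled for 8 higher genes and 1 lower gene with Tet1 shRNA 4, where this held for 25.0% of all probe sets (14.1% higher and 10.9% lower). With Tet1 shRNA 5 it held for 9 higher genes and 1 lower gene, and for 28.9% of all probe sets (11.9% lower and the rest higher).

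**Figure D2:**
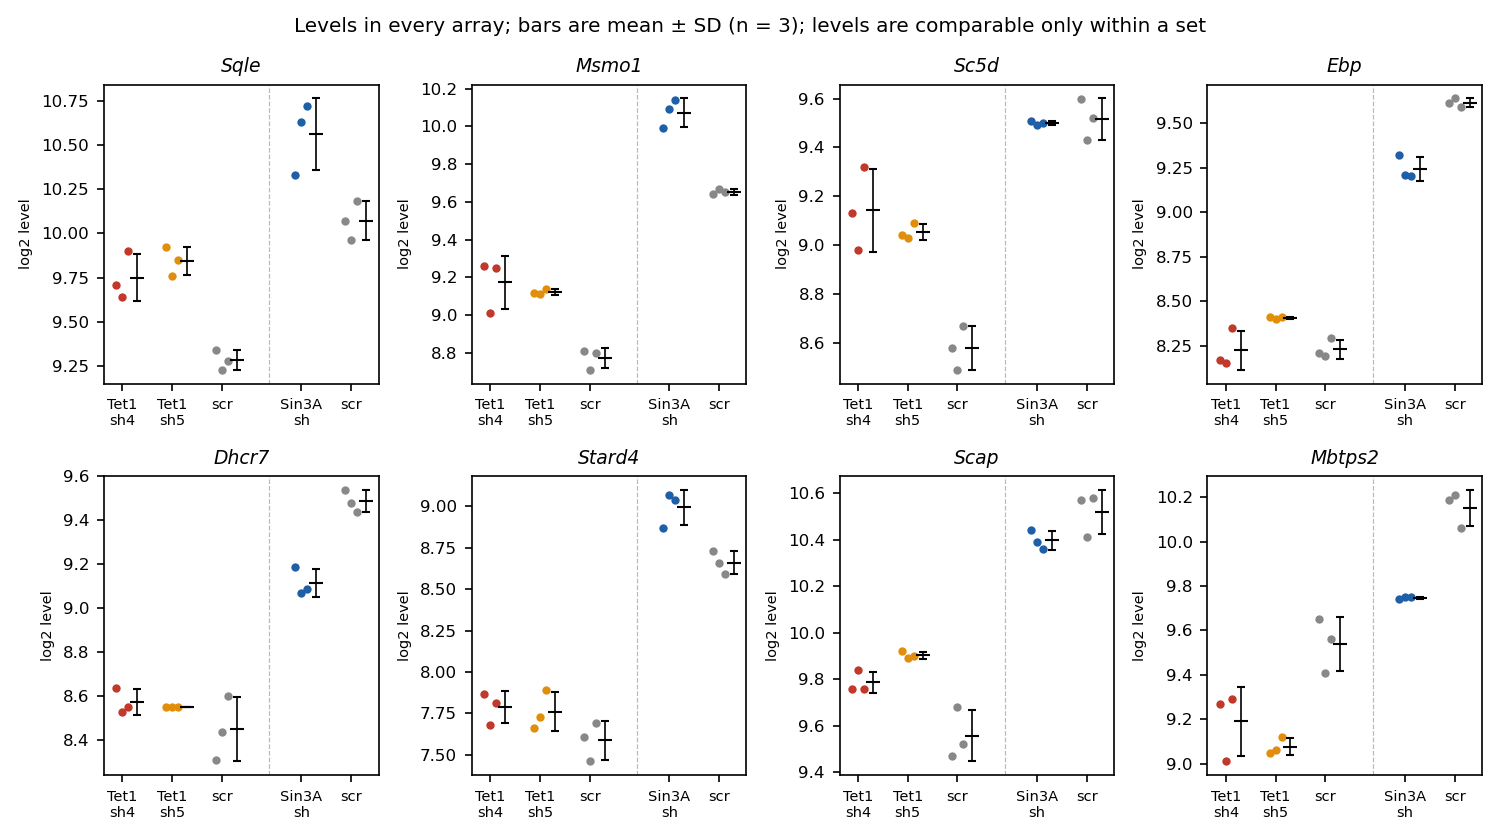
Log2 level of 8 genes in every array (points), with mean ± SD (n = 3) beside each group; within each panel the Tet1 set (Tet1 shRNA 4, Tet1 shRNA 5, scrambled) is left of the dashed line and the Sin3A set (Sin3A shRNA, scrambled) right of it, and levels can be compared only within a set. Sqle and Msmo1 are above scrambled with all 3 hairpins, Mbtps2 is below it with all 3, and Sc5d is above it in the Tet1 set only, with 9.49 to 9.51 against 9.43 to 9.60 in the Sin3A set.

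The 2 Tet1 hairpins could be set against each other directly. For Tet1 shRNA 5 against Tet1 shRNA 4, 0 of the 24 genes passed (limma, 2 at an unadjusted p under 0.05), where 0.141% of all probe sets passed, 0.0566% higher and 0.0849% lower. The genes' median difference was -0.02. Ebp and Scap had all Tet1 shRNA 5 arrays above all Tet1 shRNA 4 arrays, and 0 genes had them all below, where 14.9% of all probe sets did not overlap (8.07% above and 6.83% below). Ebp read 8.41, 8.40 and 8.41 with Tet1 shRNA 5, against 8.17, 8.15 and 8.35 with Tet1 shRNA 4 (0.19, 95% confidence interval 0.04 to 0.34, adjusted p = 0.444). The difference of Scap was 0.12 (interval -0.03 to 0.27). For Sqle it was 0.10 (-0.08 to 0.27), for Msmo1 -0.06 (-0.22 to 0.11), for Sc5d -0.09 (-0.29 to 0.11) and for Mbtps2 -0.11 (-0.31 to 0.09), so these intervals leave room for differences of up to about 0.3 on the log2 scale in one direction. Without the 2 arrays that stood apart, the difference was 0.15 for Ebp, 0.14 for Scap, 0.04 for Sqle, -0.14 for Msmo1, -0.17 for Sc5d and -0.20 for Mbtps2, and 0 of the 24 genes passed.

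Depletion of Sin3a was accompanied by changes in both directions within the pathway: Sqle, Msmo1, Cyp51, Fdps and Stard4 rose, while Ebp, Dhcr7, Mbtps1 and Mbtps2 fell. Thus 9 of the 24 genes passed (37.5%), 5 higher and 4 lower, where 24.8% of all probe sets passed, 12.2% higher and 12.6% lower. The median log2 change was 0.13, against 0.01 for all probe sets. Arrays did not overlap for 16 genes, 11 above and 5 below scrambled, where 40.5% of all probe sets did not overlap, 20.4% above and 20.1% below.

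Sqle read 10.33, 10.63 and 10.72 with Sin3A shRNA, against 10.07, 9.96 and 10.18 with scrambled. All Sin3A shRNA arrays were higher, by 0.49 ± 0.11 (SE, 1.40-fold, adjusted p = 0.0127), and leaving out Sin3A shRNA replicate 2 took the adjusted p to 0.0518. Msmo1 read 9.99, 10.09 and 10.14 with Sin3A shRNA, against 9.64, 9.67 and 9.65 with scrambled, a change of 0.42 ± 0.05 (1.34-fold, adjusted p = 0.00139). Sc5d, the third enzyme that rose with the Tet1 hairpins, read 9.51, 9.49 and 9.50 with Sin3A shRNA, against 9.60, 9.43 and 9.52 with scrambled. Its groups overlapped, and its change was -0.01 (95% confidence interval -0.15 to 0.12).

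Ebp and Dhcr7 moved the other way. Ebp read 9.32, 9.21 and 9.20 with Sin3A shRNA, against 9.61, 9.64 and 9.59 with scrambled (-0.37 ± 0.05, 1.29-fold lower, adjusted p = 0.00225). Dhcr7 read 9.19, 9.07 and 9.09 with Sin3A shRNA, against 9.54, 9.48 and 9.44 with scrambled (-0.37 ± 0.06, 1.29-fold lower, adjusted p = 0.00247). All Sin3A shRNA arrays of both genes lay below scrambled, so enzymes of the same late stretch of the pathway were higher (Msmo1) and lower (Ebp, Dhcr7) in the same cells.

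Smaller changes passed closer to the threshold. Fdps had 11.15, 11.12 and 11.19 with Sin3A shRNA, against 10.95, 10.91 and 11.00 with scrambled (0.20, adjusted p = 0.0207), and Cyp51 had 9.31, 9.30 and 9.33 with Sin3A shRNA, against 9.08, 9.22 and 8.95 with scrambled (0.23, adjusted p = 0.0459). Neither gene's groups overlapped. The Fdps call did not hold when scrambled replicate 1 (0.0691) or 2 (0.0630) was left out, or Sin3A shRNA replicate 2 (0.0570) or 3 (0.0645), and the Cyp51 call without any 1 array except scrambled replicate 2 (0.0867 to 0.118). The other mevalonate genes, Mvk, Pmvk and Mvd, had changes of 0.11, 0.16 and 0.19 and did not pass, nor did Fdft1, Lss, Tm7sf2 and Nsdhl, with changes between 0.13 and 0.19, or Hsd17b7, at 0.00.

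In SREBP control, Mbtps2 was lower with Sin3A shRNA, at 9.74, 9.75 and 9.75, against 10.19, 10.21 and 10.06 with scrambled (-0.41 ± 0.06, 1.33-fold lower, adjusted p = 0.00171). Mbtps1 read 11.27, 11.36 and 11.36 with Sin3A shRNA, against 11.55, 11.53 and 11.44 with scrambled (-0.18, adjusted p = 0.0499). Both protease genes had all Sin3A shRNA arrays below scrambled, but the Mbtps1 call was lost in 8 of 11 alternative fits, without any 1 of the 6 arrays among them (adjusted p 0.0507 to 0.158). The other 5 genes did not pass: Insig1 changed by -0.16 and Insig2 by 0.18 (adjusted p = 0.0557), Srebf1 by -0.08, Srebf2 by 0.13 and Scap by -0.12. Stard4 rose, with 8.87, 9.07 and 9.04 with Sin3A shRNA, against 8.73, 8.66 and 8.59 with scrambled (0.33 ± 0.07, 1.26-fold, adjusted p = 0.0107), and Npc1 changed by 0.03.

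**Figure D3:**
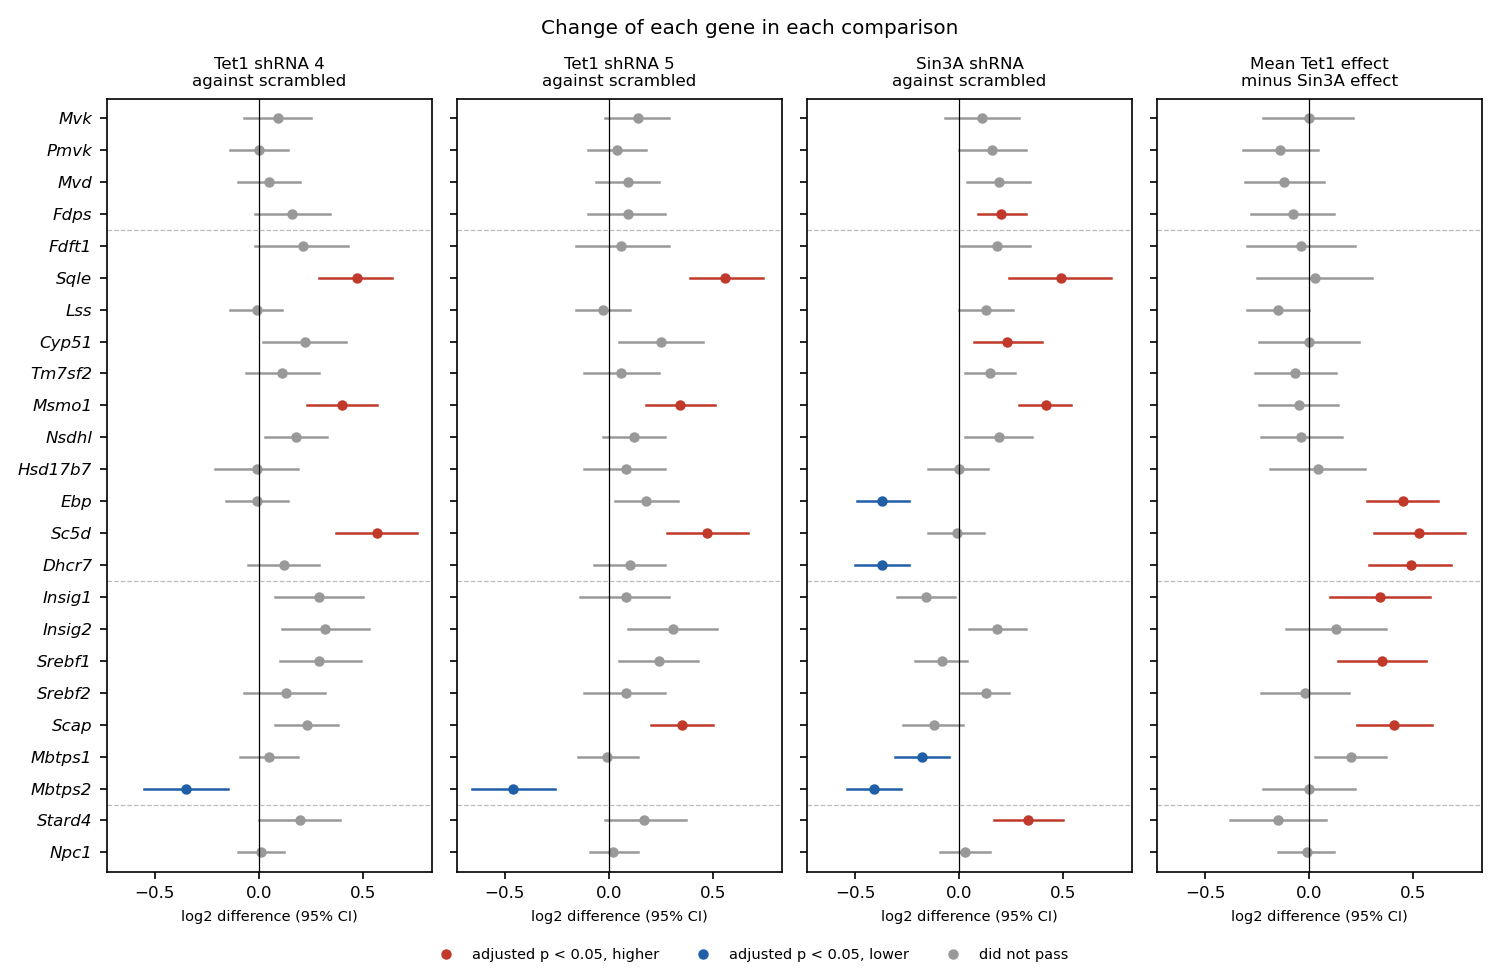
Log2 difference of each of the 24 genes (point) with its 95% confidence interval (line), for Tet1 shRNA 4 against scrambled, Tet1 shRNA 5 against scrambled, Sin3A shRNA against scrambled, and the mean Tet1 effect minus the Sin3A effect; red and blue mark adjusted p under 0.05, higher and lower, and grey the rest. The last panel has 6 red points, Ebp, Sc5d, Dhcr7, Insig1, Srebf1 and Scap, and no blue point.

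Whether the Tet1 and Sin3A depletions affected a gene unequally was tested as the mean effect of both Tet1 hairpins minus the Sin3A effect. It passed for 6 of the 24 genes (25.0%), each with the Tet1 effect above the Sin3A effect, where 20.0% of all probe sets passed, 11.3% higher and 8.71% lower. Sc5d differed by 0.53 (adjusted p = 0.00194), Dhcr7 by 0.49 (adjusted p = 0.00133), Ebp by 0.45 (adjusted p = 0.000969) and Scap by 0.41 (adjusted p = 0.00281). Srebf1 differed by 0.35 (adjusted p = 0.0211) and Insig1 by 0.34 (adjusted p = 0.0437). For Sc5d the effects were 0.57 with Tet1 shRNA 4 and 0.47 with Tet1 shRNA 5, beside -0.01 with Sin3A shRNA. For Dhcr7 they were 0.12 with Tet1 shRNA 4 and 0.10 with Tet1 shRNA 5, and for Ebp -0.01 and 0.18, both beside -0.37 with Sin3A shRNA. In the Tet1 set Dhcr7 read 8.64, 8.53 and 8.55 with Tet1 shRNA 4 and 8.55, 8.55 and 8.55 with Tet1 shRNA 5. With scrambled it read 8.31, 8.44 and 8.60. Dhcr7, Insig1 and Scap held tied values in the Tet1 set, which may shrink their spread. Without both arrays that stood apart the 6 differences were 0.53 for Sc5d, 0.49 for Dhcr7, 0.45 for Ebp, 0.46 for Scap, 0.34 for Srebf1 and 0.39 for Insig1, and all passed.

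For the genes that moved the same way in both depletions the difference did not pass, and its intervals were wide. It was 0.03 for Sqle (95% confidence interval -0.25 to 0.30), -0.05 for Msmo1 (-0.24 to 0.14) and 0.00 for Mbtps2 (-0.22 to 0.22). Each gene was targeted in 1 set only, so a difference between the sets in array processing cannot be told apart from one between the targets. The Insig1 call was lost in 14 of 21 alternative fits (adjusted p 0.0504 to 0.111), under both other scalings and without any 1 array except Tet1 shRNA 4 replicates 2 and 3 and Tet1 shRNA 5 replicate 1, and the Srebf1 call in 4 of 21, under repeated quantile normalization (0.0676) and without scrambled replicate 1 of the Tet1 set (0.0523), scrambled replicate 3 (0.0578) or Sin3A shRNA replicate 3 (0.0568) of the Sin3A set.

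**Figure D4:**
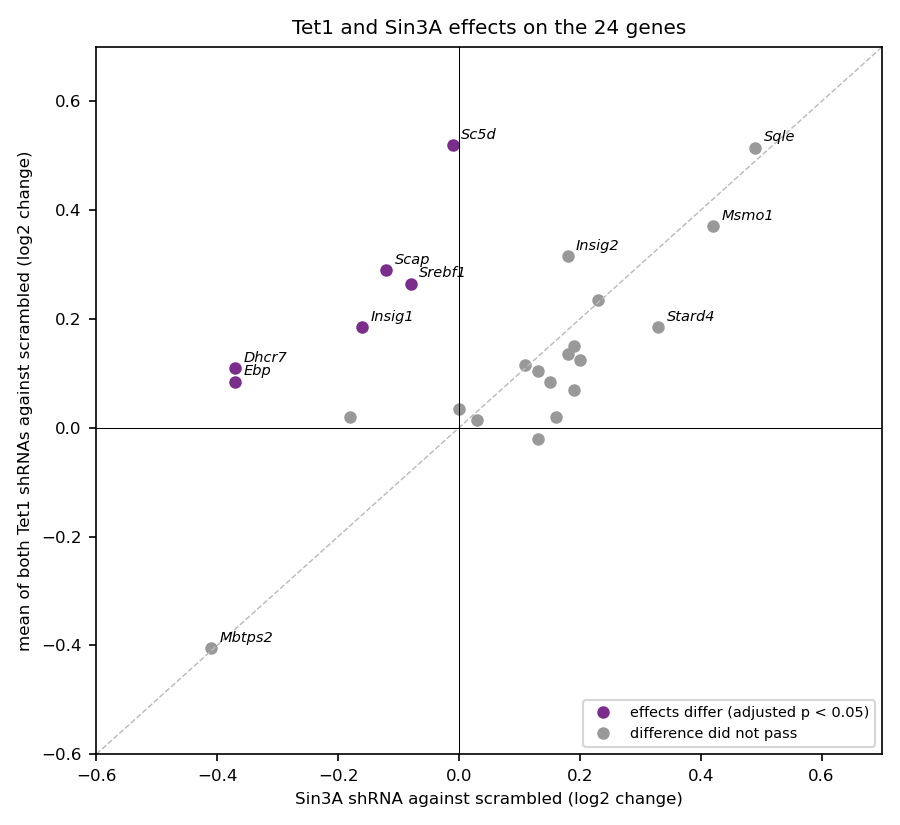
Each point is 1 of the 24 genes; the x axis gives the log2 change with Sin3A shRNA against scrambled and the y axis the mean log2 change of both Tet1 shRNAs against scrambled, with equal effects on the dashed line. Sqle, Msmo1 and Mbtps2 lie near the line, and the 6 purple points, whose 2 effects differed (adjusted p under 0.05), lie above it.

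Other genes tied to the pathway were counted by list. The lists were chosen with earlier results of these data known, so their shares are a description and no independent test. Of 11 SREBP-linked genes of fatty acid synthesis and desaturation, all measured, 6 rose and 1 fell with Tet1 shRNA 4, 5 rose and 1 fell with Tet1 shRNA 5, and 4 rose and 1 fell with Sin3A shRNA. These were 63.6%, 54.5% and 45.5% of the list, where 11.6%, 13.8% and 24.8% of all probe sets passed. Their median log2 change was 0.46, 0.45 and 0.13, against 0.00, 0.00 and 0.01 for all probe sets. Scd1, a stearoyl-CoA desaturase, averaged 11.27 ± 0.11 with Tet1 shRNA 4 and 11.12 ± 0.01 with Tet1 shRNA 5, against 9.65 ± 0.14 with scrambled (SD, n = 3 each; changes of 1.62 and 1.47, adjusted p = 7.13e-06 and 1.13e-05). With Sin3A shRNA it averaged 11.96 ± 0.02, against 11.70 ± 0.05 with scrambled (0.26, adjusted p = 0.00684), and the effects of the depletions differed by 1.28 (adjusted p = 5.72e-07). Its paralog Scd2 rose by 0.61 with Tet1 shRNA 4 and 0.49 with Tet1 shRNA 5 (adjusted p = 0.000164 and 0.000622), and the desaturase gene Fads1 by 0.65 and 0.49 (adjusted p = 0.000318 and 0.00144). Lpin1, a phosphatidate phosphatase, rose with Sin3A shRNA (1.02, adjusted p = 3.82e-05) and changed by 0.20 with Tet1 shRNA 4 and 0.11 with Tet1 shRNA 5, without passing. Scd2 fell with Sin3A shRNA by 0.17 (adjusted p = 0.0300), a call lost without any 1 of the 6 arrays (0.0583 to 0.0992).

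Of 14 measured genes of sterol transport and storage, 3 rose and 2 fell with Tet1 shRNA 4, 2 rose and 2 fell with Tet1 shRNA 5, and 5 rose and 4 fell with Sin3A shRNA. These were 35.7%, 28.6% and 64.3% of the list, where 11.6%, 13.8% and 24.8% of all probe sets passed. Abca1, the transporter that exports cholesterol to lipoproteins, averaged 7.88 ± 0.10 with Tet1 shRNA 4 and 7.84 ± 0.08 with Tet1 shRNA 5, against 8.70 ± 0.12 with scrambled (-0.82 and -0.87, adjusted p = 0.000215 and 0.000159). With Sin3A shRNA Abca1 averaged 10.06 ± 0.07, against 9.90 ± 0.07 with scrambled (0.16, adjusted p = 0.0924), and the effects differed by -1.01 (adjusted p = 7.57e-06). Scarb1, a lipoprotein receptor, rose with all 3 hairpins, by 0.53 with Tet1 shRNA 4, 0.36 with Tet1 shRNA 5 (adjusted p = 0.00073 and 0.00554) and by 0.57 with Sin3A shRNA (adjusted p = 0.000247). Nceh1, a cholesteryl ester hydrolase, rose by 0.52 with Tet1 shRNA 4 and 0.65 with Tet1 shRNA 5 (adjusted p = 0.0139 and 0.00389) and fell by 0.45 with Sin3A shRNA (adjusted p = 0.000932), with a difference of 1.04 between the effects (adjusted p = 4.46e-05). Gramd1a, which moves cholesterol from the plasma membrane, fell by 0.39 with Tet1 shRNA 4 and 0.42 with Tet1 shRNA 5 (adjusted p = 0.0116 and 0.00704). It also fell with Sin3A shRNA, by 0.19 (adjusted p = 0.0319), a call lost without any 1 of the 6 arrays (0.0560 to 0.110), and the difference of the effects did not pass (-0.22, adjusted p = 0.119). The Nceh1 call with Tet1 shRNA 4 was lost without Tet1 shRNA 4 replicate 1 (adjusted p = 0.0575) and that of Gramd1a without scrambled replicate 3 (0.0507).

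Of 7 measured genes of sterol-regulated protein degradation, 1 rose and 0 fell with each Tet1 hairpin, and 1 rose and 1 fell with Sin3A shRNA. These shares, 14.3% with each Tet1 hairpin and 28.6% with Sin3A shRNA, were near the 11.6%, 13.8% and 24.8% of all probe sets. Erlin1, which takes part in the degradation of endoplasmic reticulum proteins, rose by 0.77 with Tet1 shRNA 4 and 0.91 with Tet1 shRNA 5 (adjusted p = 0.00459 and 0.00168) and changed by -0.01 with Sin3A shRNA, a difference of 0.84 (adjusted p = 0.00125). Faf2 fell by 0.38 with Sin3A shRNA (adjusted p = 0.00137), and Fbxw7, a ubiquitin ligase subunit that targets nuclear SREBP, rose by 0.37 (adjusted p = 0.0167, and 0.0548 without scrambled replicate 1 or Sin3A shRNA replicate 2). In the isoprenoid branch, which leaves the pathway at farnesyl diphosphate, 0 of 8 measured genes passed with each Tet1 hairpin (limma, 1 at an unadjusted p under 0.05 in each case), and 1 rose and 2 fell with Sin3A shRNA (37.5%, where 24.8% of all probe sets passed). Coq2, an enzyme of ubiquinone synthesis, fell by 0.40 there (adjusted p = 0.00474), and Fntb, a subunit of protein farnesyltransferase, changed by -0.18 (adjusted p = 0.0454), a call lost without any 1 of the 6 arrays (0.0635 to 0.130). Dhdds, an enzyme of dolichol synthesis, changed by 0.20 (adjusted p = 0.0383), a call lost without scrambled replicate 1 (0.0893) or 3 (0.112) or Sin3A shRNA replicate 2 (0.145) or 3 (0.0811).

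The 8 genes named from these lists that passed for both Tet1 hairpins also passed without the 2 arrays that stood apart. With Tet1 shRNA 4 and Tet1 shRNA 5, the changes were then 1.62 and 1.41 for Scd1, 0.67 and 0.51 for Scd2, 0.68 and 0.56 for Fads1, and 0.68 and 0.76 for Erlin1. They were -0.95 and -0.94 for Abca1, 0.52 and 0.40 for Scarb1, 0.42 and 0.51 for Nceh1, and -0.45 and -0.42 for Gramd1a.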

How the data were processed

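Total RNA was hybridised to 1-colour Affymetrix arrays, 1 per sample, and groups were taken from the sample titles. The deposited table held log2 values, and the submitters' processing notes name affy, RMA and limma without versions. No genome build is named there. The mean over probe sets was 7.08 to 7.11 per array in the Tet1 set and 8.09 per array in the Sin3A set, so levels were compared only within a set. The difference of effects took each effect within its own set. Levels of different probe sets were compared only where markers were counted above the median probe set, which probe affinity can affect. In the Tet1 set 49.1% of probe sets (8 of the 24 genes) held tied values, which may shrink the spread, and in the Sin3A set 0%. The 8 genes were Mvk, Pmvk, Dhcr7, Insig1, Srebf2, Scap, Mbtps1 and Npc1. The number of arrays limits precision.

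Group means were compared in limma (version 3.58.1, under R 4.3.3) by moderated two-sided tests (9 arrays with 3 group means, 6 arrays with 2, and all 15 for the difference of effects) over 21212 probe sets, with Benjamini-Hochberg adjustment and a threshold of 0.05. The script was tested on simulated data. Genes were named where past the threshold, with at most 4 per other list. The genes and lists were chosen with earlier results of these data known. Alternatives were median centring, repeated quantile normalization, a filter on dim probe sets, an intensity trend, a replicate block, smaller fits and arrays left out. Replicate numbers were not taken to pair samples, since deviations of same-numbered arrays correlated between -0.287 and 0.517 in the Tet1 set and between -0.274 and 0.0212 in the Sin3A set.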

Additional observations from a re-analysis of the deposited data

Results flagged for a closer look

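The effects of Tet1 and Sin3a depletion differed by the test of the difference itself (limma, mean Tet1 effect minus Sin3A effect on the log2 scale, adjusted over 21212 probe sets) for 6 genes. These were Ebp (0.45), Sc5d (0.53), Dhcr7 (0.49), Insig1 (0.34), Srebf1 (0.35) and Scap (0.41). They made up 25% of the 24 genes, where 20.0% of all probe sets passed. The Insig1 call was lost in 14 of 21 alternative fits and the Srebf1 call in 4 of 21. Groups of 3 arrays are too small for a test of single outlying arrays.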

How the results depend on the processing

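For Tet1 shRNA 4, the count of the 24 genes that passed was 4, and it became 8 with only probe sets above the median level, 7 with an intensity trend, and 7 without both arrays that stood apart; for Tet1 shRNA 5 and for both hairpins it was 5 and 4, and 7 and 6 without those arrays. For Sin3A shRNA it was 9, and 15 with only probe sets above the median level. The calls over all probe sets moved as well. Above the median level, 5009 of 10606 passed for Sin3A shRNA and 2715 of 10606 for Tet1 shRNA 4. With all arrays and probe sets these were 5261 and 2459 of 21212. An intensity trend gave 2697 of 21212 for Tet1 shRNA 4. Fewer probe sets enter the adjustment above the median level, and the cause was not tested. Leaving out each array in turn gave 3 to 6 genes for Tet1 shRNA 4, 5 to 6 for Tet1 shRNA 5, 0 to 0 for Tet1 shRNA 5 against Tet1 shRNA 4, 6 to 10 for Sin3A shRNA, 4 to 7 for the difference of effects, and 3 to 5 for both Tet1 hairpins. With the replicate number as a block the counts were 4, 5, 0, 6, 6 and 4 in the same order, and the Fdps, Cyp51 and Mbtps1 calls with Sin3A shRNA were lost (adjusted p = 0.0510, 0.0793 and 0.113), as were those of Fntb (0.0852), Dhdds (0.0703), Scd2 (0.0879) and Gramd1a (0.0793). Calls over all 21212 probe sets moved in these fits too. Without 1 array they ran from 1662 to 2633 for Tet1 shRNA 4 and from 2004 to 3077 for Tet1 shRNA 5. For Sin3A shRNA they ran from 3359 to 4944, for the difference of effects from 3408 to 4511, and for both Tet1 hairpins from 1380 to 2046. With the block they were 2290, 2784, 4111, 3723 and 1757 in that order. Over the 24 genes and all alternatives, 1835 values kept their side of the threshold, 39 newly passed, 46 no longer passed, and 0 called values changed sign. The 1835 include values that passed in no fit, such as all those of Tet1 shRNA 5 against Tet1 shRNA 4. That total therefore does not measure how firm the calls were. The 46 could come only from values that passed in the main fit. Over all probe sets, Tet1 shRNA 5 against Tet1 shRNA 4 gave 30 calls, 0 with the block or with only the 2 groups in the fit (limma, 1817 and 2114 at an unadjusted p under 0.05) and 72 above the median level; 40.0% of the 30 were higher, 51.6% with median centring.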
